A study of Triticum aestivum with 20 samples.

Results

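The longest activated blocks of wheat leaf chromatin were uninterrupted runs of 20000 bp or more in which every 200-bp bin carried 1 of the activated states E1, E2, E6 or E7. They were selected on the leaf segmentation alone, by merging neighbouring segments of these states and keeping runs at or above that length. Of 245326 activated runs in leaf, 676 met this rule (0.276%), and they are called blocks here. They covered 19.02 Mb, which was 5.02% of all activated bases of leaf.

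The study compared vernalized leaf with leaf of the winter wheat cultivar AK58. Vernalized leaf came from plants given 1 month of cold at 4 °C and then 1 day in the greenhouse, and leaf came from plants grown for 2 weeks without cold. Age, cold and return to warmth therefore differed together and cannot be told apart. Each condition had 10 libraries, namely 2 replicates for each of 4 histone marks (H3K4me3, H3K36me3, H3K27ac and H3K27me3) and 2 inputs, and these entered 1 chromatin segmentation per condition together with chromatin accessibility.

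H3K36me3 is a mark that is laid down over the transcribed body of genes, whereas H3K4me3 and H3K27ac mark promoters and the first part of active genes, and H3K27me3 marks chromatin repressed by Polycomb proteins. Regulatory DNA that is free of nucleosomes is seen as accessible. A long transcribed gene typically appears as a stretch of H3K36me3 with the other active marks near its start. By the order of rows in the study's display, E1 combined accessibility with H3K27ac, H3K36me3 and H3K4me3, E2 was mainly H3K36me3, E6 was accessible with weak H3K27ac and E7 was accessible alone. E5 carried H3K27me3 and is called repressed, E9 is called unmodified, and E3, E4 and E8 are called mixed. The marks behind each state could not be checked, since values per mark were not used here, and equal state names in both conditions need not have the same definition. Coordinates follow IWGSC RefSeq v1.0, for which no gene annotation was used, so the genes inside the blocks are not named.

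The blocks had a median length of 25600 bp, against 600 bp for all activated runs of leaf. Their middle lengths were narrow, with a lower quartile of 21800 bp, an upper quartile of 30600 bp and a 90th percentile of 38200 bp. Only 57 blocks reached 40000 bp and 24 reached 50000 bp. There was no gap at the threshold, since 23 runs of exactly 20000 bp fell inside it and 23 runs that were 1 bin of 200 bp shorter fell just outside. The first 3 of the shortest blocks by position lay on chromosome 1D from 392552801, on 2A from 170453201 and on 2B from 473754801, and 95%, 100% and 92.0% of their bases were activated in vernalized leaf. The first 3 runs just outside lay on 1A from 99885401 and on 1B from 277438601 and from 359193001, with 93.9%, 96.0% and 96.0%. These shares overlapped on both sides of the threshold.

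With 82800 bp, the longest block spanned 387078801 to 387161600 of chromosome 6B. In leaf it was 31.6% E1 and 68.4% E2, in 4 E1 segments set in E2, the longest of 15600 bp. In vernalized leaf 99.8% of it was activated in 1 piece, with E1 over 28.3% of its length, but E1 was spread over 14 segments, of which the longest was 4800 bp. The block thus kept its extent and nearly its amount of E1, while the E1 segments became more numerous and shorter.

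The next longest block, on 6A from 297624601 to 297707200, was 82600 bp long and the longest of sub-genome A. Its E1 took 16.7% of the block in 10 segments in vernalized leaf, against 15.3% in 6 segments in leaf, and 95.6% of its bases remained activated, in 3 pieces. The longest block of sub-genome D, on 6D from 218382001 to 218453200, was 71200 bp of almost pure E2 (96.4% in leaf). It was cut into 6 pieces in vernalized leaf, although 92.4% of its bases were still activated. Short breaks were thus enough to divide a block that otherwise stayed activated.

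The block on 2B from 367657201 to 367729800 (72600 bp) was of another kind, since E1 covered 73.6% of it in leaf. E1 covered 74.4% of it in vernalized leaf, and its longest E1 segment measured 17400 bp there and 17600 bp in leaf. It lost 11.02% of its bases to the unmodified state and lay in 6 pieces. The block on 3B from 810104201 to 810174400 (70200 bp) stood near the chromosome end and had a mixed segment at its left border. In its 50-kb flanks 28.6% of the bases were repressed in vernalized leaf and 47.6% in leaf, whereas the flanks of the other 9 of the 10 longest blocks held at most 0.8% repressed bases in leaf. The remaining blocks of the 10 longest lay on 6A from 268936201, 6B from 321255401, 5B from 176570601, 6B from 342985001 and 3D from 255394401. They measured 69200, 66000, 63000, 59800 and 59600 bp and remained activated over 98.8%, 96.4%, 90.8%, 93.7% and 94.3% of their bases. Of the 10 longest blocks, 6 lay on group 6 chromosomes and 6 on sub-genome B.

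**Figure D1:**
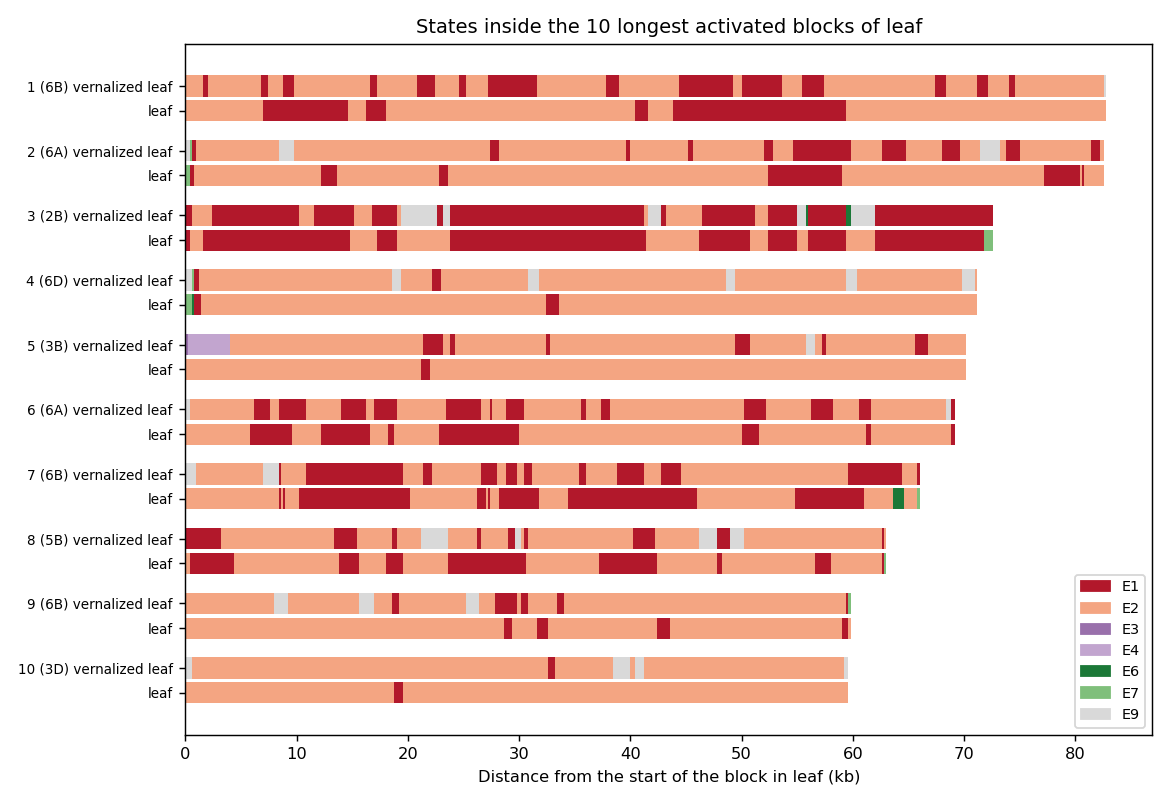
States along the 10 longest activated blocks, with vernalized leaf above leaf for each block and distance from the start of the block in kb on the horizontal axis. Colours mark the states, and grey gaps (E9) are bases that were unmodified in vernalized leaf. The longest block (6B) holds 14 E1 segments in vernalized leaf and 4 in leaf, and only the block on 3B holds a mixed state.

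In leaf the blocks consisted chiefly of E2. E2 covered 84.4% of their bases, E1 14.5%, E6 0.409% and E7 0.644%. In the other activated runs the shares were 72.8% for E2, 10.4% for E1, 3.51% for E6 and 13.3% for E7. In runs of 10000 bp to under 20000 bp they were 88.5%, 7.46%, 2.24% and 1.76%. A high share of E2 was thus not particular to the blocks, whereas E1 was higher in them when all block bases were pooled. The median block held 6.59% E1, and runs of 2000 to 9800 bp held 11.7% of their bases in E1. Runs under 2000 bp were 33.6% E7. These compositions come from the values that chose the blocks and are given as a description. Accessible chromatin without E1 was thus scarce in the blocks, and only 332 of the 676 blocks held any E6 or E7.

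Blocks differed widely in E1. The share of E1 per block ran from 0% to 89.9%, with a median of 6.59%. No E1 was found in 81 blocks, of which 64 were a single stretch of E2, whereas 175 blocks held 1 E1 segment, 171 held 2, 115 held 3 and 134 held 4 or more, up to 10. Most blocks therefore held more than a single E1 segment, and 37 blocks were more than 50% E1. The longest block without E1 was 42400 bp of unbroken E2 on 4B from 204717801 to 204760200. In vernalized leaf 98.6% of it was activated, in 1 piece, and it held 2 E1 segments covering 6.60%. The highest share of E1 was also found on 4B, from 334075601 to 334103200 (27600 bp). This block was 81.9% E1 in vernalized leaf and 89.9% E1 in leaf, and its longest E1 segment was 21200 bp in vernalized leaf and 24400 bp in leaf.

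Very long E1 segments lay mainly inside the blocks. Of 88086 E1 segments in leaf, 40 were 10000 bp or longer, and 35 of these were in blocks. Of the 208 E1 segments of 5000 bp or more, 145 were in blocks. Since a long E1 segment brings a run nearer to the threshold, this is partly set by the rule. The median E1 segment was short in both places, at 600 bp in blocks and 400 bp elsewhere. The longest uninterrupted E2 stretch of a block had a median of 17400 bp, and in 275 blocks a single E2 stretch alone reached 20000 bp.

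The order of states inside the blocks was varied, but most changes of state were between E1 and E2. Of 3186 boundaries between states, 81.1% were between E1 and E2, 8.38% between E1 and E7 and 4.52% between E2 and E7. When E6 and E7 were counted as 1 accessible state, 127 different orders were found, and the most frequent of them, read without regard to direction, were E2-E1-E2 (76 blocks), E2 alone (64 blocks), E2-E1-E2-E1-E2 (54 blocks) and accessible-E1-E2 (39 blocks). The remaining blocks followed other orders.

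E1 lay close to a border in most blocks. Of the 595 blocks with E1, 482 had it within 2000 bp of at least 1 border and 93 within 2000 bp of both. By base, E1 was not confined to the borders. In leaf its share was 17.7% at 0.3 kb inside the border, 6.66% at 1.3 kb and 14.35% at 9.9 kb. Over whole blocks it was 14.5%. In the 175 blocks with a single E1 segment, the centre of that segment was at a median of 2.80% of the block length from the nearer border. It was within 10% of the length from a border in 122 of them, between 10% and 40% in 37, and in the central 40% to 60% in 16. The ends of the blocks were E2 at 68.9% of 1352 borders, E7 at 20.5% and E1 at 10.5%. Both ends were E2 in 309 blocks, 1 end was E2 and the other E7 in 207 blocks, and 1 end was E1 and the other E2 in 107 blocks.

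The blocks were concentrated around the middle of the chromosomes. Of the 676 blocks, 501 (74.1%) were centred between 25% and 75% of the chromosome length, whereas 43.9% of all activated bases of leaf lay there. The share of block bases in this range was 76.8% ± 12.01 per chromosome, against 42.1% ± 5.84 for the other activated bases (SD over 21 chromosomes), and it was higher on 21 of 21 chromosomes. The gap was narrow on 5A (46.1% and 44.6%) and on 5B (50.5% and 46.9%) and reached over 40 percentage points on several chromosomes such as 7A (90.8% and 44.3%). Between 40% and 60% of the length lay 253 blocks (37.4%) and 17.1% of the activated bases. In the first and last 10% of the chromosome length were 52 blocks (7.69%) and 23.3% of the activated bases.

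When each chromosome was divided into 20 equal bins, the ninth bin from the start held most blocks, with 105, and the last bin held fewest, with 11. In the ninth bin blocks made up 20.8% of all activated bases, against 1.49% in the last bin. The densest bins were the seventh to the tenth, so the median position of a block was 42.3% of the chromosome length. In wheat the centromere usually lies near or before the middle of the chromosome, in a gene-poor region of low recombination. Positions of centromeres were not used here.

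Blocks rich in E1 were the most central. Of the 124 blocks with more than 25% E1, 91.9% lay between 25% and 75% of the chromosome length and 52.4% between 40% and 60%. For the 302 blocks with less than 5% E1 these shares were 66.9% and 29.5%, and for the 250 blocks in between they were 74.0% and 39.6%. E1 covered 16.6% of block bases in the range from 25% to 75% and 7.63% outside it. The median length of a block was 26800 bp inside this range and 23000 bp outside it.

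**Figure D2:**
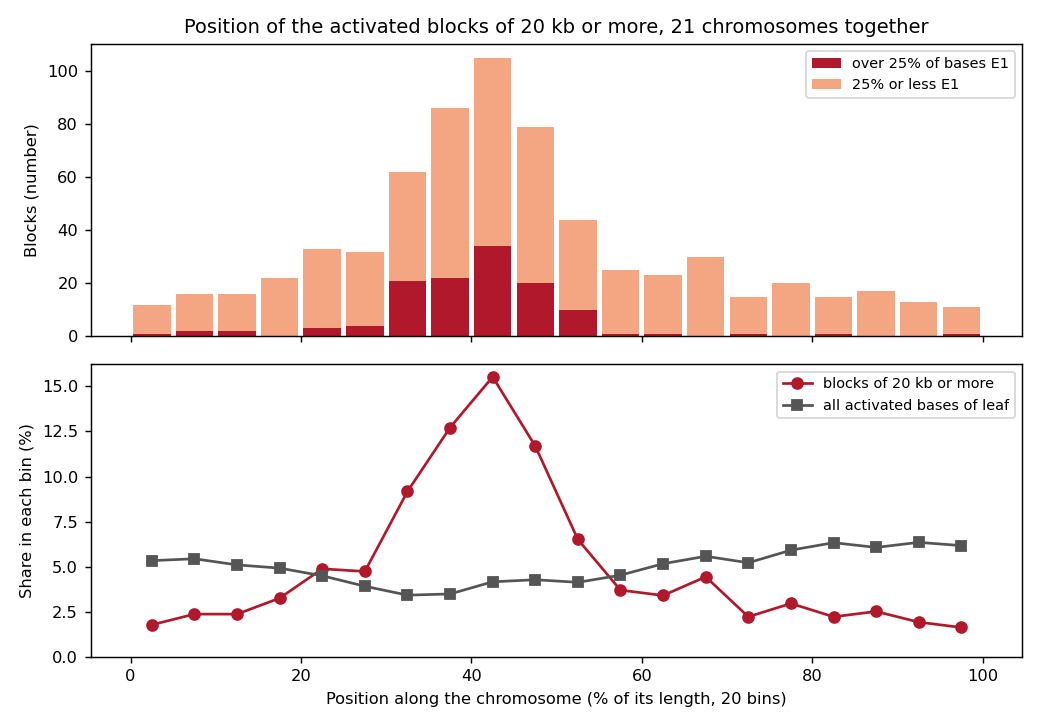
Position of the 676 blocks along the chromosome, with all 21 chromosomes scaled to their length and divided into 20 bins. The upper panel gives the number of blocks per bin, split at 25% E1, and the lower panel gives the share of blocks and of all activated leaf bases in each bin in percent. Blocks reach 105 in the ninth bin and 11 in the last, while the activated bases are spread more evenly.

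Bread wheat has 3 sub-genomes, A, B and D, each with 7 chromosomes that correspond to each other in homoeologous groups. Blocks were found on every chromosome, and A held 228, B 230 and D 218. Their number per chromosome ran from 17 on 5D to 45 on 3A, followed by 44 on 4A and 43 on 4B. By homoeologous group, groups 3 and 4 held 122 and 124 blocks, and group 5 held 74. Within a group the numbers could differ, as in group 1, where 1A held 29 blocks, 1B held 19 and 1D held 34. The share of a chromosome's activated bases that lay in blocks was highest on 4A (7.23%), 4D (6.77%) and 4B (6.68%), and lowest on 5D (2.44%).

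Per 100 Mb of chromosome there were 4.63 ± 1.04 blocks on A, 4.45 ± 1.08 on B and 5.62 ± 1.56 on D (SD, n = 7 chromosomes each). The highest density was 7.26 on 4D and the lowest was 2.75 on 1B. A minus D was -0.993 blocks per 100 Mb, lower on A in 6 of 7 groups, with an exact p = 0.0469 by two-sided permutation of signs and an adjusted p = 0.141 over the 12 comparisons made. A minus B was 0.179 (adjusted p = 0.766, exact permutation test) and B minus D was -1.17 (adjusted p = 0.263, exact permutation test). No difference in number between sub-genomes therefore passed the adjusted threshold of 0.05 at this block length. With a threshold of 15000 bp both differences from D passed it, at -2.05 for A minus D and -3.36 for B minus D (both adjusted p = 0.0375, exact permutation test). A minus D also passed it, at -1.35, when runs separated by up to 600 bp were joined (adjusted p = 0.0469, exact permutation test).

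The D chromosomes are shorter, so the share of activated bases was compared as well. Blocks held 5.05% ± 1.48 of the activated bases on A, 5.24% ± 1.04 on B, and those on D 4.97% ± 1.497. The differences of -0.193 percentage points for A minus B, 0.0822 for A minus D and 0.275 for B minus D were all smaller than the spread between chromosomes (adjusted p = 0.713, 0.766 and 0.688, exact permutation tests). The low number on 1B went with the first 240 Mb of this chromosome, in which 0.0382% of the bases were activated in vernalized leaf and 0.0518% in leaf. No block lay there, the first one starting at 245929201, and without this part 1B had 4.22 blocks per 100 Mb.

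**Figure D3:**
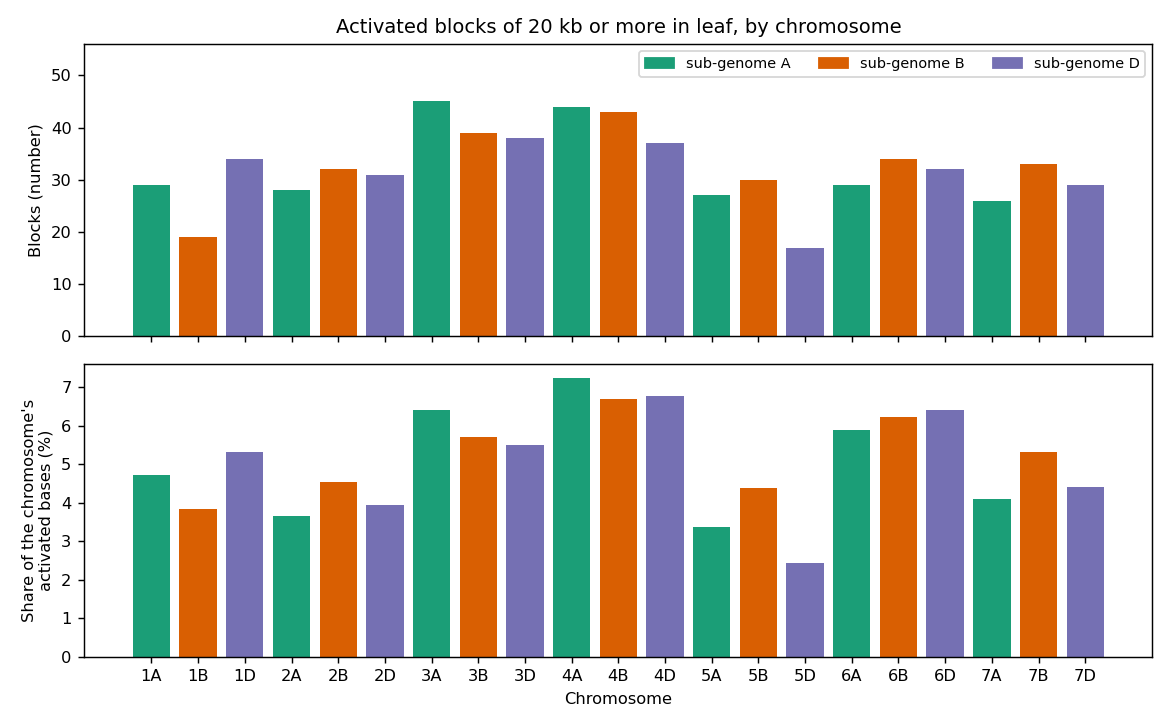
Blocks on each of the 21 chromosomes, coloured by sub-genome. The upper panel gives their number, from 17 on 5D to 45 on 3A, and the lower panel gives the percent of the chromosome's activated bases that lie in blocks, from 2.44% on 5D to 7.23% on 4A. Group 4 chromosomes are the highest in the lower panel.

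The blocks seldom lay within 10000 bp of each other. Whether they lay closer together than even placement along the chromosomes would give was not tested. The distance from a block to the nearest other block had a median of 4027 kb, and 103 blocks had another within 1 Mb. Only 2 pairs lay within 10000 bp of each other. On 4B the blocks from 322630601 to 322662400 and from 322666001 to 322688400 were 3600 bp apart, with no activated base between them in either condition. On 5A the blocks from 246804001 to 246824000 and from 246827401 to 246850600 were 3400 bp apart, and 64.7% of the bases between them were activated in vernalized leaf but none in leaf.

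The immediate neighbour of a block was nearly always unmodified chromatin, at 1342 of 1352 borders (99.3%). E5 was the neighbour at 2 borders, and mixed states at the rest. The next activated run was often close, at a median gap of 2800 bp, and 256 borders (18.9%) had it within 600 bp. Many blocks therefore stood beside further activated chromatin from which a few unmodified bins set them apart.

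The 50-kb flanks of the blocks were poor in repressed chromatin. Repressed bases took 0.821% of the flanks in vernalized leaf and 1.37% in leaf, against 3.52% and 4.24% of the whole genome. In 555 blocks (82.1%) the flanks held no repressed base in leaf. Set against activated runs of 10000 bp to under 20000 bp, the mean share of repressed leaf flank per chromosome was 1.31% for blocks and 3.31% for these shorter runs. The difference was -2.01 ± 1.15 percentage points (SD, n = 21 chromosomes), lower on 21 of 21, with an adjusted p = 4e-05 by sign-flip permutation. Position moved with this difference, because among runs between 25% and 75% of the chromosome length it was only -0.200 percentage points with an adjusted p = 0.113 (sign-flip permutation). The flanks of blocks outside that range were 4.37% repressed, and those of blocks inside it were 0.317% repressed.

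Activated bases took 5.92% of the 50-kb flanks in vernalized leaf and 4.31% in leaf. In the nearest 10 kb the shares were 17.0% and 10.7%, above the 2.79% and 2.69% of the whole genome. The increase was larger than around runs of 10000 bp to under 20000 bp, where the nearest 10 kb were 16.7% activated in vernalized leaf and 12.6% in leaf. This difference was not tested.

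The blocks remained largely activated in vernalized leaf. Of their bases, 95.1% were activated there, against 71.8% for all other activated runs of leaf. The share fell with the length of the leaf run, to 91.1% in runs of 10000 bp to under 20000 bp, 82.0% in runs of 2000 to 9800 bp and 43.8% in runs under 2000 bp. Taken per chromosome, blocks kept 95.1% of their bases and runs of 10000 bp to under 20000 bp kept 91.1%. The difference of 3.99 ± 1.26 percentage points (SD, n = 21 chromosomes) was positive on 21 of 21 chromosomes, with an adjusted p = 4e-05 by sign-flip permutation. The unadjusted p of 1e-05 is the smallest that 100000 resamples could give, and it describes these 2 segmentations, not the spread between plants. Without the outer 2000 bp at each end of a run the difference was 3.28 percentage points (adjusted p = 6e-05, sign-flip permutation).

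Per block, the activated share in vernalized leaf had a mean of 94.95% ± 6.45 (SD, n = 676 blocks) and a median of 96.7%. At least 90% of the bases were activated in 577 blocks (85.4%), against 27.8% of all activated runs of leaf. Every base was activated in 151 blocks (22.3%), which is close to the 22.5% among all runs. No block was without any activated base, whereas 46.9% of all runs, chiefly those under 2000 bp, had none. Fewer than 80% of the bases were activated in 19 blocks and fewer than 50% in 1 block. Among the 3375 runs of 10000 bp to under 20000 bp, 66.5% kept at least 90% of their bases and 21.9% were kept whole. Only 1 of them (0.0296%) had no activated base. The blocks thus differed from all runs in the share kept over most of their length and in the share lost. From runs of 10000 bp to under 20000 bp they differed in the first of these only. The share kept whole was near that of all runs.

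**Figure D4:**
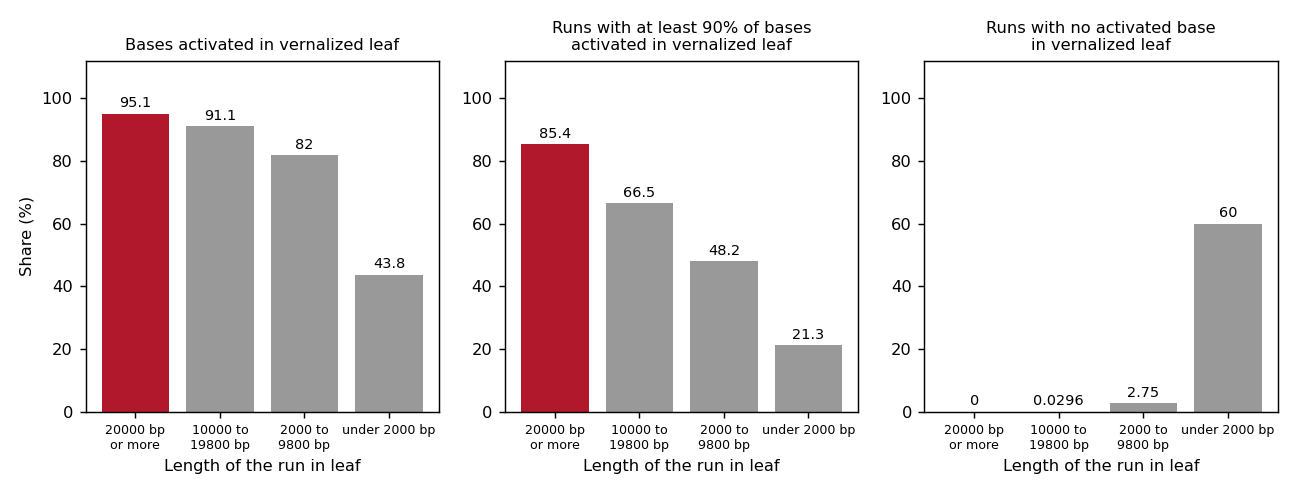
Fate in vernalized leaf of activated leaf runs by their length in leaf, with blocks in red and shorter runs in grey. The panels give the percent of bases still activated, the percent of runs with at least 90% of bases activated, and the percent of runs with no activated base. For blocks these are 95.1%, 85.4% and 0%, and for runs under 2000 bp they are 43.8%, 21.3% and 60.04%.

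Bases that left the activated class became unmodified. Unmodified chromatin took 913.0 kb of the blocks in vernalized leaf (4.80%), mixed states took 10.6 kb in 10 blocks, and no base became repressed. Retention differed little between sub-genomes, at 95.1% ± 0.731 on A, 95.3% ± 1.04 on B, and 94.8% ± 1.003 on D (SD, n = 7 chromosomes each). None of the 3 differences passed the threshold (adjusted p = 0.688 for A minus B, 0.482 for A minus D and 0.281 for B minus D, exact permutation tests). The chromosome with the highest share was 1B (96.4%) and that with the lowest was 5D (93.6%).

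The same state was kept at 81.4% of block bases, against 57.4% of the bases in other activated runs. E2 was the more stable of the main states, since 87.6% of its block bases were E2 in vernalized leaf, 6.84% were E1 and 5.31% were unmodified. Of the E1 bases of leaf blocks, 48.6% were E1 in vernalized leaf and 50.1% were E2, while 0.544% were unmodified. In other runs 37.0% of the E1 bases stayed E1, 41.5% were E2 and 8.19% were unmodified. Inside blocks E1 therefore exchanged with E2 and was hardly ever lost from the activated class. E6 and E7 bases of blocks left the activated class more often than E1 and E2 bases. Still activated were 87.7% of E6 and 70.6% of E7 bases, against 99.45% of E1 and 94.6% of E2 bases. In other runs these shares were 77.0%, 40.8%, 89.7% and 74.7%, in the same order. In blocks 49.1% of E6 bases and 27.1% of E7 bases kept their own state.

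Within bases activated in leaf, E1 fell less in blocks than in all other activated runs counted as 1 class. It did not fall less than in the runs next in length. E1 gained outside the leaf runs was not counted, which lowers the ratios given here. Of runs under 2000 bp, 60.04% had no activated base in vernalized leaf. Blocks held 2460 kb of E1 in vernalized leaf and 2759 kb in leaf, a ratio of 0.892, and the ratio in the other activated runs was 0.673. The mean log2 ratio per chromosome was -0.15 in blocks and -0.57 in other runs. The difference of 0.42 ± 0.23 (SD, n = 21 chromosomes) was positive on 20 of 21 chromosomes, with an adjusted p = 4e-05 by sign-flip permutation. Among runs between 25% and 75% of the chromosome length it was 0.28 (adjusted p = 0.00096, sign-flip permutation). Runs of 10000 bp to under 20000 bp had a ratio of 0.927, so the net length of E1 changed least in the runs just below the threshold. How many of their E1 bases stayed E1 was not measured. The difference between these runs and the blocks was not tested.

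Although E1 covered fewer bases, it lay in more segments. Blocks held 1993 E1 segments in vernalized leaf and 1527 in leaf, with a median of 600 bp in both. Of the leaf E1 segments in blocks, 905 (59.3%) overlapped E1 in vernalized leaf. Of the E1 segments in vernalized leaf, 951 (47.7%) overlapped no leaf E1. E1 covered more bases in vernalized leaf in 282 blocks, fewer in 331 and equally many in 63. Of the 81 blocks without E1 in leaf, 44 had some in vernalized leaf. The number of segments rose and their placement changed in a large part, as the longest block showed.

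E2 bases close to leaf E1 changed to E1 at a higher rate than those further away. Most E2 bases lay further away, and so did most new E1. Among E2 bases within 1000 bp of leaf E1, 13.6% were E1 in vernalized leaf, against 7.12% at 1200 to 5000 bp, 5.86% at 5200 to 10000 bp and 5.39% beyond 10000 bp. In blocks without E1 it was 2.61%. Of all E2 bases that became E1, 28.1% lay within 1000 bp of leaf E1, against 14.1% of all E2 bases of blocks. Another 38.2% lay more than 5000 bp away or in blocks without E1. Of the 16059.4 kb of E2 in leaf blocks, 3005 kb lay at 5200 to 10000 bp, 3524 kb beyond 10000 bp and 2059 kb in blocks without E1. Relative to E2 bases as a whole, new E1 was thus more frequent near leaf E1 and less frequent far from it. Loss of E2 from the activated class varied less, with 4.64% both within 1000 bp and at 1200 to 5000 bp, 5.02% at 5200 to 10000 bp, 7.30% beyond 10000 bp and 5.27% in blocks without E1. Distances were taken within a block, and bases of 1 block are not independent, so these shares are given without a test.

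Blocks with much E1 lost E1, and those with little gained it. The ratio of E1 length in vernalized leaf over leaf was 0.684 in blocks with more than 25% E1 in leaf, 1.01 in blocks with 5% to 25% and 2.88 in blocks with less than 5%. Since these classes were cut on leaf E1 itself, a part of this order follows from the choice. The number of E1 segments was higher in vernalized leaf in all 3 classes, at 683 against 511, 811 against 701 and 499 against 315. Activated bases were retained at 96.3%, 95.8% and 94.0% in these classes.

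Small gaps divided many blocks in vernalized leaf. In 305 blocks (45.1%) the activated bases still formed 1 piece, in 216 they formed 2, in 86 they formed 3 and in 69 they formed 4 or more, up to 7. The longest piece had a median of 93.3% of the block length. In all, 1013 stretches of blocks were no longer activated, 624 inside the block and 389 at a border. Those inside had a median of 800 bp and held 77.5% of the lost bases, and 63.8% of them were 1000 bp or shorter. Those at a border had a median of 400 bp. Most lost bases thus lay inside, where most block bases are, but the rate of loss was higher at the ends. In vernalized leaf 28.6% of borders were unmodified in the first bin inside the leaf border and 17.7% in the next, against 3.92% at 4.9 kb inside.

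The 5 blocks with the lowest activated share in vernalized leaf were on 2D from 512799601 to 512830600 (38.1%), 7D from 12999001 to 13020400 (56.1%), 6D from 225591601 to 225615400 (61.3%), 5B from 196234601 to 196254800 (61.4%) and 2A from 319027001 to 319052800 (64.3%). All of the loss was to the unmodified state. The block on 2D was 31000 bp long and 98.7% E2 in leaf, and it lay in 5 pieces in vernalized leaf, the longest of 7600 bp. It also held the longest lost stretch of any block, 9600 bp of E2 from 512815401 to 512825000. In the block on 2A E1 took 0.775% of the bases in vernalized leaf and 36.4% in leaf, whereas in the block on 5B it took 35.6% in vernalized leaf and 42.6% in leaf. The longest stretch that became mixed was the 4000 bp at the left border of the 3B block described above, from 810104201 to 810108200, which was E2 in leaf.

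The borders of blocks moved outward more often than inward. Of 1352 borders, 674 (49.9%) lay further out in vernalized leaf, by a median of 800 bp, 389 (28.8%) lay further in, by a median of 400 bp, and 289 (21.4%) had not moved. For runs of 10000 bp to under 20000 bp, 42.3% of borders lay further out, 34.5% further in and 23.2% had not moved. Shifts were mostly small, with 77.0% of block borders within 1000 bp of their place in leaf. Outward shifts of 2000 bp or more occurred at 148 borders and inward shifts of that size at 12. Only 22 blocks had both borders unmoved.

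Borders ending in E1 were the most stable, with 47.2% of 142 unmoved, 43.0% outward and 9.86% inward. Of 932 borders ending in E2, 16.0% were unmoved, 53.2% outward and 30.8% inward, and of 277 ending in E7, 26.4% were unmoved, 41.9% outward and 31.8% inward. The outward shifts added 913.2 kb in all. Of these bases 73.9% were unmodified in leaf, 25.5% belonged to neighbouring activated runs that were joined to the block, and 0.416% were repressed. Such a neighbour was taken in at 184 borders.

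The largest outward shift was 20000 bp, at the right border of the block on 7A from 375874001 to 375895400, whose left border was unmoved. Inside the same block 83.2% of the bases were still activated, and E1 took 1.87% in vernalized leaf and 14.0% in leaf. The largest inward shift was 5600 bp, at the left border of the block on 6D from 225591601 to 225615400 named above.

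The plot of states across the borders showed this as a blurred edge in vernalized leaf. In the first 200-bp bin inside the border, E2 took 49.7% of borders in vernalized leaf and 68.9% in leaf, E7 took 9.39% and 20.5%, and E1 took 9.54% and 10.5%. In that bin 28.6% of borders were unmodified in vernalized leaf. In the first bin outside the border, E2 took 37.6% and unmodified chromatin 48.5% in vernalized leaf, whereas 99.3% was unmodified in leaf by the way blocks were cut. At 9.9 kb inside, E2 took 85.2% in vernalized leaf and 85.6% in leaf. E1 showed a first peak just inside the border, at 15.2% in vernalized leaf and 17.7% in leaf in the next bin inwards. Its share was 9.39% and 6.66% at 1.3 kb inside, and 11.4% and 14.35% at 9.9 kb inside.

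**Figure D5:**
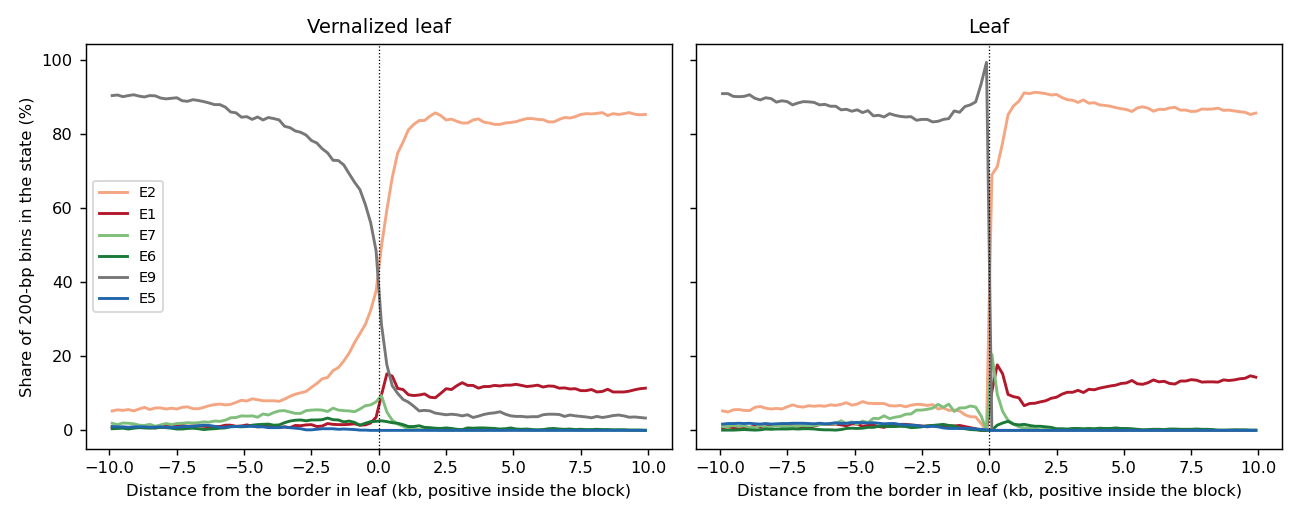
Percent of 1352 block borders in each state by distance from the border as placed in leaf, in kb, with positive distances inside the block. The left panel is vernalized leaf and the right panel is leaf. The edge is sharp in leaf because borders were set there, and it is spread over a few kb in vernalized leaf, with more E2 outside the border than in leaf.

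The same rule applied to vernalized leaf gave 541 activated runs of 20000 bp or more, against 676 in leaf, a ratio of 0.800. This was found although vernalized leaf had more activated runs in all, 285107 against 245326. When runs separated by up to 600 bp were joined, the numbers of long runs were nearer, at 656 in vernalized leaf and 757 in leaf. The runs of 20000 bp or more covered 14.6 Mb in vernalized leaf, with a median of 25000 bp, and the longest was 84200 bp. They were 13.6% E1 and 85.0% E2. Their number was lower in vernalized leaf on each of the 21 chromosomes, for example 36 against 45 on 3A and 13 against 19 on 1B.

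Most of these were the same regions. Of the leaf blocks, 464 (68.6%) overlapped a run of 20000 bp or more in vernalized leaf, and 472 of the 541 (87.2%) overlapped a leaf block. For another 187 leaf blocks the longest overlapping activated run measured from 10000 bp to under 20000 bp in vernalized leaf, and for 25 it was shorter than that, down to 4000 bp. The 212 leaf blocks without such an overlap were still activated over a median of 91.0% of their bases and lay in a median of 3 pieces. The 69 long runs seen only in vernalized leaf were activated over a median of 88.7% of their bases in leaf. Regions counted as long in only 1 condition were thus mostly activated over the greater part of their length in the other.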

How the data were processed

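Leaf and vernalized leaf of wheat had been profiled by ChIP-seq in 20 libraries. Per the labels and the methods of the study, reads were trimmed with fastp 0.21.0 and aligned with Bowtie2 2.3.5.1 to IWGSC RefSeq v1.0, and ChromHMM assigned 1 of 9 states to each 200-bp bin from peaks of accessibility and of 4 histone marks. The deposited values used here are these state labels, with 1 segmentation per condition. How replicates were combined is not given in the sources used here. Read numbers were not used here, so the depth behind a state is unknown. Each condition has no values per library, and all tests describe these segmentations. The number of columns that matched no condition was 0.

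Neighbouring segments in E1, E2, E6 or E7 were merged, and runs of 20000 bp or more were kept. The blocks, lists and tests were chosen with earlier results of these data known. Sub-genomes were compared by exact two-sided sign-flip permutation over 7 homoeologous groups (128 patterns, smallest p = 0.0156). Blocks were compared with shorter runs by two-sided sign-flip permutation over 21 chromosomes (100000 resamples, smallest p = 1e-05). P-values were adjusted by Benjamini-Hochberg over 12 comparisons. Blocks named in the text are the 10 longest, the longest per sub-genome, the 5 least activated in vernalized leaf, the longest without E1, the highest in E1, the 3 on each side of the threshold, those with the largest border shifts and those with the longest lost stretch per class. The 2 close pairs and chromosomes other than the highest and lowest were named after their values were seen. Alternatives were other thresholds, joining of runs across short gaps, E1 and E2 alone, narrower flanks and leaving out each homoeologous group. Steps were tested on simulated data. Python 3.11.15, numpy 2.4.6 and matplotlib 3.10.9 were used.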

Additional observations from a re-analysis of the deposited data

How the results depend on the processing

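No paired analysis was possible because the libraries of a condition share 1 segmentation, without separate values. A percentage with no test was taken to have moved when it left the 95% binomial interval over bins, which is narrow. Numbers of runs were judged by a fixed limit on their fold change. The E1 ratio was judged by a 95% interval from its 2 counts of bins. Thresholds of 15000 and 30000 bp gave 1268 and 137 long runs in vernalized leaf and 1469 and 189 blocks in leaf, 8.58% and 1.95% of activated bases, 86.6% and 79.6% E2, 94.3% and 95.9% retained in vernalized leaf, and 1.98% and 0.671% repressed flank. With 15000 bp the E1 ratio was 0.923. Joining runs across 200 bp raised the share of activated bases to 5.11%. Joining across up to 600 bp gave 5.55% of activated bases, 83.8% E2, 94.4% retained and 1.67% repressed flank. E1 and E2 alone gave 5.62%, 85.3%, 95.4% and 1.25%, where only E1 and E2 bases counted as activated. Equal weight for each block gave 94.95% retained, and 10-kb flanks were 1.52% repressed. Alternatives chosen after seeing the data were blocks between 25% and 75% of the chromosome length only and blocks without their outer 2000 bp (96.1% retained). The central blocks held 8.80% of the activated bases of runs centred in that range, not of all activated bases. They gave 82.6% E2, 95.5% retained and 0.317% repressed flank.

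Between sub-genomes, A minus D in number per 100 Mb was -2.05 with 15000 bp and -1.35 with joining across up to 600 bp, and B minus D was -3.36 with 15000 bp, each then past the threshold. Differences that had not passed the test changed sign as follows. A minus B in number was -0.0229 with 30000 bp. In share of activated bases, A minus B was 0.308 with 15000 bp and 1.19 for central blocks only, A minus D was -0.0670 with 30000 bp and -0.0930 with joining across up to 600 bp, and B minus D was -0.697 for central blocks only. Shares for central blocks were taken of the activated bases of central runs. A minus B in retention was 0.115 for central blocks only. The difference in repressed flanks was -0.200 for central runs only and no longer passed.

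Leaving out each homoeologous group in turn gave 441 to 482 long runs in vernalized leaf and 552 to 602 blocks in leaf, 4.73% to 5.33% of activated bases, 84.0% to 85.0% E2, 94.95% to 95.3% retained, an E1 ratio of 0.880 to 0.904 and 1.24% to 1.43% repressed flank. Number per 100 Mb ranged from -0.146 to 0.353 for A minus B, from -1.29 to -0.815 for A minus D and from -1.57 to -0.683 for B minus D. Share of activated bases ranged from -0.368 to -0.0215 for A minus B, from -0.0592 to 0.198 for A minus D and from -0.0045 to 0.567 for B minus D. The differences from shorter runs ranged from 3.82 to 4.16 for retention, from 0.39 to 0.44 for log2 E1 and from -2.25 to -1.79 for flanks. The depth of the libraries was not used here, so its part in the number of blocks was not tested.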
